A study of Homo sapiens with 15 samples.

Results

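The 10 genes described here encode intermediate filament proteins and were chosen by symbol as a list: the keratins KRT8, KRT18, KRT19, KRT10 and KRT38, the mesenchymal and progenitor proteins vimentin (VIM) and nestin (NES), and the neuronal proteins NEFL, NEFM and INA. They are 10 of the 58735 genes in the expression tables, which also hold 63 other intermediate filament genes. Of the 10, 9 passed the filter of at least 0.5 FPKM in at least 3 libraries (FPKM, fragments scaled to exon length and library size, allows levels of different genes to be compared per length), as did 16175 genes in all. The list was drawn up with earlier results of these data known, and the silence of KRT38 in the control was part of the choice, so KRT38 against the control is given as a description with no test.

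HEK293T is a human embryonic kidney line carrying the SV40 large T antigen, used in this study as a supporting cell that may protect co-cultured U937 leukemia cells from a drug. The 15 libraries came from 5 groups of 3 wells grown without U937 cells in DMEM: Non-target, transduced with a CRISPRv2 vector carrying a guide without a target and labelled WT, and the CRISPR knockout (CKO) lines of C9orf89, MAGI2, MLPH and RHBDD2. Where 4 values follow each other without names, they stand in that order. C9orf89 (also named CARD19) encodes a CARD domain protein, MAGI2 a membrane scaffold, MLPH the melanosome transport adaptor melanophilin and RHBDD2 a rhomboid family protein. Each knockout line is 1 clone raised by limiting dilution, Non-target was cloned in the same way, and all 5 lines carry the vector and its selection. The clones, below, are the 4 knockout lines. A difference between lines therefore cannot be told apart from a difference between clones, and p-values measure the spread between 3 wells of 1 line only. In bulk RNA, fewer cells of a type and less RNA per cell cannot be told apart.

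Intermediate filaments are the rope-like part of the cytoskeleton, assembled from coiled-coil proteins whose make-up marks a cell's lineage. Keratins form obligate pairs of a type I and a type II chain, so that KRT8 (type II) partners KRT18 or KRT19 (type I) in simple epithelia, whereas KRT10 belongs to the suprabasal epidermis and KRT38 to the hair cortex. Vimentin polymerizes alone in mesenchymal cells and in most cultured lines, nestin needs a partner such as vimentin and marks neural and other progenitors, and the neurofilament light and medium chains (NEFL and NEFM) copolymerize with alpha-internexin (INA) in axons.

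The labels were first compared with the targeted genes. RHBDD2 was at 33.5 FPKM in Non-target and at 12.4 in RHBDD2-CKO (log2 fold change -1.42, adjusted p = 7.56e-06, limma with Benjamini-Hochberg adjustment over 16175 genes, as throughout). It was lower in MAGI2-CKO as well, at 13.8 FPKM (-1.27, adjusted p = 1.55e-05). C9orf89 was at 6.56 FPKM in Non-target and 4.32 in its own clone (-0.58, adjusted p = 9.77e-04), and it was lower in RHBDD2-CKO too, at 4.79 FPKM (-0.44, adjusted p = 0.00489, and 0.0526 in a fit of the 6 libraries alone). MAGI2 was under the filter in every group (0.115 FPKM in Non-target and 0.0680 in MAGI2-CKO), and MLPH had no fragment in any library, so that RNA gave no check of those labels. Each library held between 15517856 and 19489918 fragments on genes, with group medians from 16209432 (RHBDD2-CKO) to 19423812 (MAGI2-CKO). The replicate 1 library of each group stood apart: the chi-square per gene between libraries of a group was 14.6 to 24.8 for pairs with replicate 1 and 2.40 to 6.54 for replicates 2 and 3. Every member that passed the threshold against Non-target also passed it from replicates 2 and 3 alone.

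Against Non-target, 6 of the 8 testable members passed the threshold in C9orf89-CKO, where 26.0% of all tested genes did, 3 of them higher (12.9% of all genes) and 3 lower (13.1%). In MAGI2-CKO 6 passed (36.1% of all genes), 3 higher (17%) and 3 lower (19.1%). In MLPH-CKO 5 passed (30.1%), all higher (14.5%), and in RHBDD2-CKO 3 passed (34.1%), all lower (16.7%). The median size of the log2 change over the 8 members was 0.56, 0.53, 0.61 and 0.31, and over all tested genes 0.24, 0.29, 0.26 and 0.29. The 4 comparisons share the same 3 Non-target libraries and are not independent of each other. Wells without overlap with Non-target were common. They were seen for 39.7%, 46.8%, 41.1% and 44.2% of all tested genes, and for 6, 7, 6 and 4 of the 8 testable members.

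**Figure D1:**
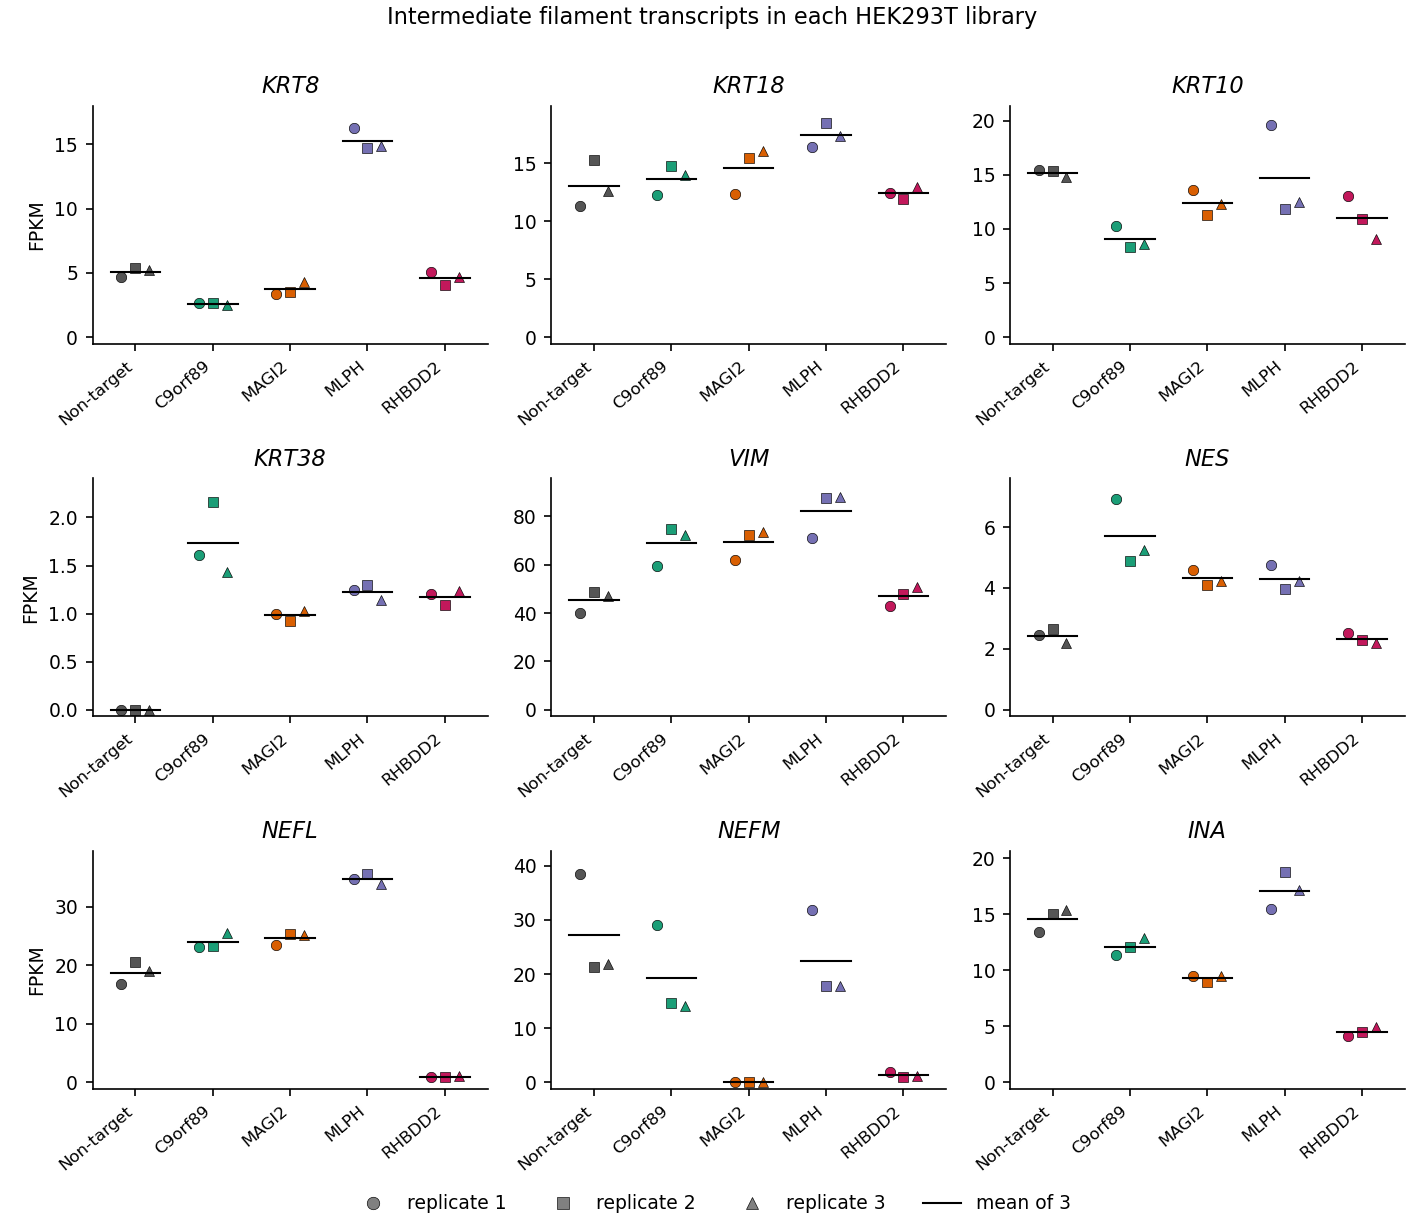
Expression in FPKM (linear axes from 0) of the 9 members with fragments, 1 panel a gene and 1 point a library, with marker shapes for replicates 1 to 3 and a line at the mean of each group. NEFL drops in RHBDD2-CKO (0.984), NEFM in MAGI2-CKO (0.0274) and RHBDD2-CKO (1.34), KRT8 is highest in MLPH-CKO (15.3), and KRT38 is at 0 in Non-target.

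**Figure D2:**
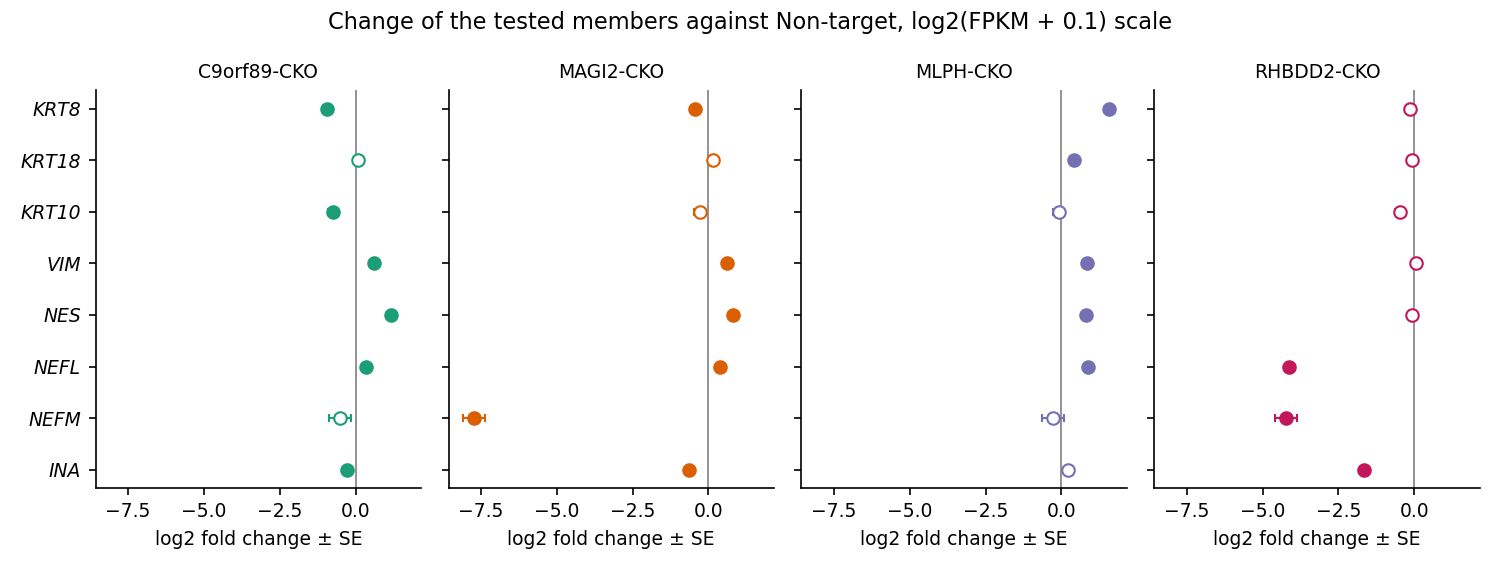
Log2 fold change against Non-target on the log2(FPKM + 0.1) scale, with bars of 1 standard error, for the 8 testable members in each clone; filled points passed an adjusted p of 0.05 and open points did not. NEFM in MAGI2-CKO (-7.73) and NEFM and NEFL in RHBDD2-CKO (-4.23 and -4.12) lie farthest from 0.

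Among the epithelial keratins, KRT8 passed the threshold against Non-target in 3 of the 4 clones and its partner KRT18 in 1, MLPH-CKO. KRT8 (ENSG00000170421, GRCh38 chr12:52897187-52949954, minus strand) was at 4.65, 5.39 and 5.22 FPKM in the Non-target wells, 2.69, 2.64 and 2.51 in C9orf89-CKO, 3.39, 3.48 and 4.28 in MAGI2-CKO, 16.3, 14.7 and 14.9 in MLPH-CKO and 5.03, 4.08 and 4.70 in RHBDD2-CKO. The MLPH-CKO wells stood above all others, the C9orf89-CKO wells below all others, and RHBDD2-CKO overlapped with Non-target. KRT8 was 3.01-fold higher in MLPH-CKO (log2 1.57, SE 0.10, adjusted p = 2.10e-07), 1.95-fold lower in C9orf89-CKO (-0.93, adjusted p = 2.51e-05) and 1.37-fold lower in MAGI2-CKO (-0.45, adjusted p = 0.00357). In RHBDD2-CKO its log2 difference was -0.14 (adjusted p = 0.298). KRT18 (ENSG00000111057, chr12:52948871-52952901, plus strand) was at 11.3, 15.3 and 12.6 FPKM in Non-target, 12.3, 14.8 and 14 in C9orf89-CKO, 12.4, 15.5 and 16.1 in MAGI2-CKO, 16.4, 18.5 and 17.4 in MLPH-CKO and 12.4, 11.9 and 13.0 in RHBDD2-CKO. MLPH-CKO lay above Non-target without overlap and the other clones overlapped with it. The 1.33-fold rise of KRT18 (log2 0.42, SE 0.12, adjusted p = 0.0171) was lost without Non-target replicate 1 (0.0711), Non-target replicate 3 (0.0554) or MLPH-CKO replicate 2 (0.0651), and in a fit of the 6 libraries alone (0.0559). In the other clones its adjusted p was 0.708 (C9orf89-CKO), 0.318 (MAGI2-CKO) and 0.729 (RHBDD2-CKO). Tested directly, KRT18 was lower in RHBDD2-CKO than in MLPH-CKO (-0.48, adjusted p = 0.00632), and MLPH-CKO did not pass against C9orf89-CKO (0.0698) or MAGI2-CKO (0.151).

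KRT8 therefore varied more than its partner. The ratio of KRT8 to KRT18 in FPKM was 0.882 ± 0.101 (SD, n = 3) in MLPH-CKO, 0.392 ± 0.0348 in Non-target, 0.370 ± 0.0322 in RHBDD2-CKO, 0.255 ± 0.0260 in MAGI2-CKO and 0.192 ± 0.0237 in C9orf89-CKO. The ratios of C9orf89-CKO and MAGI2-CKO lay below and those of MLPH-CKO above every Non-target well, each with p = 0.1 in an exact two-sided permutation test, the smallest that 3 against 3 allows (RHBDD2-CKO, exact p = 0.5). In all 15 libraries KRT18 exceeded KRT8 per length. The annotated spans of the pair overlap by 1084 bases on opposite strands, and the counting strand is not given in the sources used here. The 50 annotated KRT8 pseudogenes held fragments equal to 14.6% of those of KRT8, mostly at KRT8P12 (1196 fragments over the 15 libraries). Summed by group they came to 288 in Non-target and 285, 491, 375 and 258 in the clones, beside 1718 and 921, 1493, 5831 and 1631 for KRT8 itself. For KRT18 the 67 pseudogenes held 3.19%. Reads may be split between these copies in a way the tables cannot show.

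**Figure D3:**
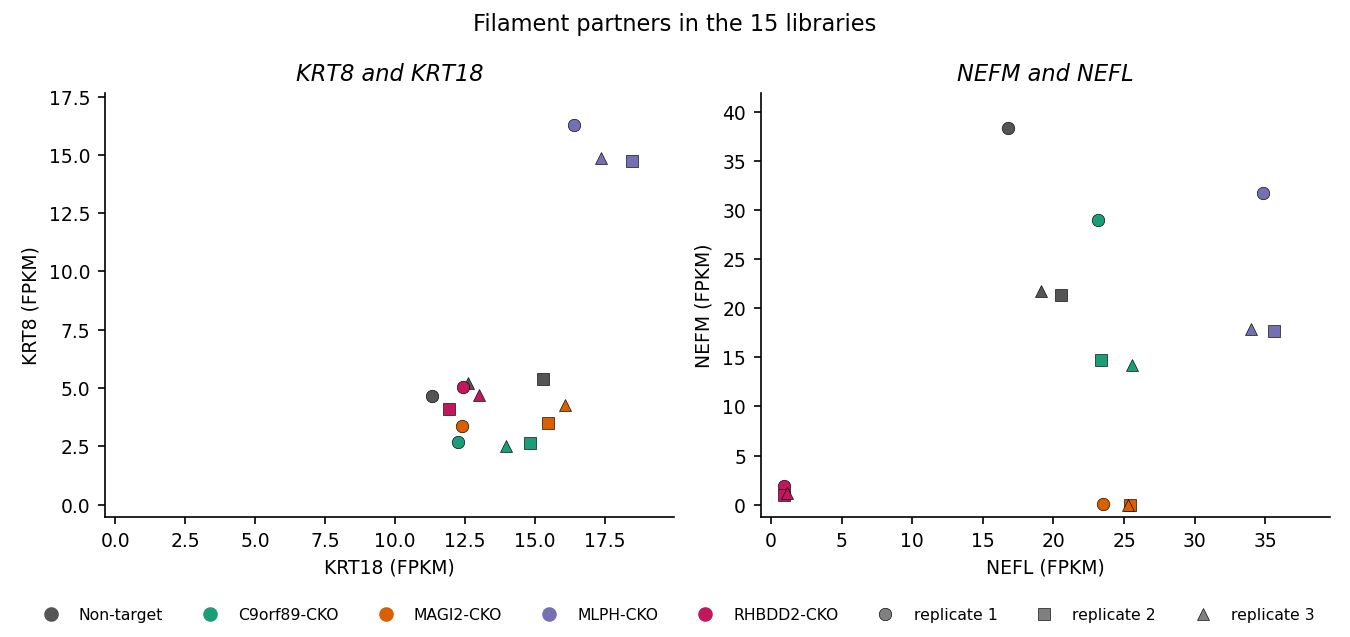
KRT8 against KRT18 and NEFM against NEFL in FPKM (linear axes), 1 point a library, coloured by group with marker shapes for replicates 1 to 3. MLPH-CKO stands apart in KRT8 (14.7 to 16.3), MAGI2-CKO lies along the NEFL axis with NEFM near 0, and RHBDD2-CKO is low in both neurofilament genes.

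KRT19 (chr17:41523617-41528308, minus strand), the other simple epithelial type I keratin, had 0 fragments in all 15 libraries. A count of 0 allows up to 3 fragments, or 0.0658 to 0.0829 FPKM depending on the library, for counting error only. KRT10 (chr17:40818117-40822595, minus strand), in contrast, had levels close to those of KRT18, at 15.4, 15.4 and 14.8 FPKM in Non-target, 10.3, 8.29 and 8.65 in C9orf89-CKO, 13.6, 11.3 and 12.3 in MAGI2-CKO, 19.6, 11.9 and 12.5 in MLPH-CKO and 13.0, 10.9 and 9.06 in RHBDD2-CKO. Every Non-target well lay above all wells of RHBDD2-CKO, MAGI2-CKO and C9orf89-CKO, while replicate 1 of MLPH-CKO lay above Non-target and its other replicates below. Only the fall in C9orf89-CKO passed the threshold (log2 -0.74, SE 0.17, adjusted p = 0.00709). In RHBDD2-CKO the difference was -0.47 (adjusted p = 0.0501), and it passed without MLPH-CKO replicate 1 (0.00994), MLPH-CKO replicate 2 (0.0426) or RHBDD2-CKO replicate 1 (0.0260). From replicates 2 and 3 alone, KRT10 was lower in RHBDD2-CKO (adjusted p = 0.00174), MAGI2-CKO (0.0173) and MLPH-CKO (0.0328) as well. KRT10 shares 3490 bases with TMEM99 on the opposite strand, which had a mean of 8.56 FPKM.

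KRT38 (ENSG00000171360, chr17:41436446-41440921, minus strand), a type I hair keratin, had no fragment in any Non-target library. It had 62, 91 and 56 fragments in C9orf89-CKO, 45, 42 and 47 in MAGI2-CKO, 53, 57 and 49 in MLPH-CKO and 51, 43 and 47 in RHBDD2-CKO, so the lowest clone library stood at 42 fragments and the highest control library at 0. In FPKM these were 1.61, 2.16 and 1.44, then 0.992, 0.927 and 1.03, then 1.24, 1.29 and 1.14, and then 1.20, 1.09 and 1.24. Against a floor of 3 fragments over the 3 Non-target libraries (a mean of 0.0262 FPKM), KRT38 was at least 66.2-, 37.5-, 46.8- and 44.8-fold higher, respectively. The choice of KRT38 used its presence in all 4 clones, through which it passed the filter, but not its order among them, in which C9orf89-CKO was highest. It exceeded MAGI2-CKO (MAGI2-CKO minus C9orf89-CKO, log2 -0.74, SE 0.15, adjusted p = 0.00360) and RHBDD2-CKO (-0.51, adjusted p = 0.0234). The second call was lost without C9orf89-CKO replicate 2 (0.118) or RHBDD2-CKO replicate 2 (0.0825), from replicates 2 and 3 alone (0.0891) and in a fit of the 6 libraries alone (0.0840). The other 4 pairs of clones did not pass (adjusted p from 0.0685 to 0.805).

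The zero in Non-target extended beyond KRT38. Within 100 kb on either side of the gene, the annotation lists 18 genes, and 8 of them had a fragment in some library but none had a fragment in Non-target. Of those 8, 7 were detected in all 4 clones. Reading along the chromosome from KRT38, the next keratin genes were the pseudogene KRT43P (11, 12, 7 and 7 fragments over the 3 libraries of each clone), KRT32 (21, 33, 20 and 20), KRT35 (21, 28, 14 and 5), KRT36 (5, 4, 6 and 4) and KRT13 (7, 5, 8 and 3), with the small nuclear RNA gene RNU2-32P between KRT32 and KRT35 (3, 8, 2 and 1). On the other side KRT37, KRT31, KRT34, KRT33B and KRT33A had 0 fragments in all 15 libraries. These neighbours were named after their values were seen, lay under the filter and were not tested. In the whole table, 22 genes had 0 fragments in Non-target and a fragment in each of the 12 clone libraries, 4 of them on chromosome 17, and 3 of these 4 were KRT38, KRT32 and KRT43P. KRT38 was 1 of the 4 that had a mean of at least 1 FPKM in the clones. Of 8 markers of hair follicle and cortex, 2 reached 1 FPKM, and the list summed to 20.6 FPKM in Non-target and 22.5, 21.5, 24.9 and 21.7 in the clones. MSX2, a homeobox gene, rose from 10.2 FPKM in Non-target to 14.8 in MAGI2-CKO (adjusted p = 0.00278) and 14.5 in MLPH-CKO (0.00478) and was at 11.3 in C9orf89-CKO and 11.2 in RHBDD2-CKO. HOXC13, a regulator of hair keratins, fell from 10.3 FPKM to 6.13 in MAGI2-CKO (adjusted p = 0.00201) and was at 10.9, 10.1 and 10.3 in the other clones. KRT85, a type II hair keratin, and KRT31 had no fragment in any library. The part of these markers in the result was not tested.

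The 250 bases upstream of KRT38 (RefSeq, GRCh38.p14, chr17:41440984-41441233, minus strand, printed 5′ to 3′) are shown because this is the gene with a silent control. Capitals mark the 3 CG dinucleotides.

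KRT38: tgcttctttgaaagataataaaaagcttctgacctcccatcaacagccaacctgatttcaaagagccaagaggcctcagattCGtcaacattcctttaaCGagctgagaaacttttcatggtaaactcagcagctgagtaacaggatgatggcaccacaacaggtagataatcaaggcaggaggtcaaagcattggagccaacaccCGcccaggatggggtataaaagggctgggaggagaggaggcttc

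The window held the TATA box letters TATAAA, which 10.7% of the 35116 RefSeq windows of this length also held on either strand. It held the GC box letters GGGCGG on the opposite strand (CCGCCC as printed), and 42.6% of the windows held them on either strand. It also held the CCAAT box letters CCAAT on the opposite strand (ATTGG as printed), and 32.0% of the windows held them on either strand. The median window had 11 CG dinucleotides. DNA methylation was not measured.

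VIM and NES, whose products form mixed filaments, were higher in the same 3 clones and near the control level in RHBDD2-CKO. VIM (ENSG00000026025, chr10:17228259-17237593, plus strand) was at 40.1, 48.6 and 46.9 FPKM in Non-target, 59.3, 74.7 and 72.3 in C9orf89-CKO, 62.0, 72.2 and 73.4 in MAGI2-CKO, 71.2, 87.5 and 87.9 in MLPH-CKO and 42.8, 47.7 and 50.6 in RHBDD2-CKO. It was the most abundant of the 10 genes per length in the mean of every group, and in the first 3 clones each well lay above each Non-target well. VIM rose 1.52-fold in C9orf89-CKO (log2 0.60, SE 0.12, adjusted p = 0.00233), 1.53-fold in MAGI2-CKO (0.61, adjusted p = 0.00127) and 1.82-fold in MLPH-CKO (0.86, adjusted p = 1.51e-04). In RHBDD2-CKO the difference was 0.06 (adjusted p = 0.738). NES (ENSG00000132688, chr1:156668763-156677397, minus strand) was at 2.45, 2.66 and 2.19 FPKM in Non-target, 6.93, 4.88 and 5.26 in C9orf89-CKO, 4.60, 4.10 and 4.24 in MAGI2-CKO, 4.74, 3.97 and 4.22 in MLPH-CKO and 2.51, 2.28 and 2.18 in RHBDD2-CKO. Again the first 3 clones did not overlap with Non-target and RHBDD2-CKO did. NES rose 2.34-fold (log2 1.18, SE 0.12, adjusted p = 1.97e-05), 1.77-fold (0.80, adjusted p = 2.39e-04) and 1.77-fold (0.80, adjusted p = 3.49e-04), respectively, and in RHBDD2-CKO stood at -0.06 (adjusted p = 0.726). Tested directly, RHBDD2-CKO was lower than each of the other clones in VIM (adjusted p = 0.00362 against C9orf89-CKO, 0.00207 against MAGI2-CKO and 1.71e-04 against MLPH-CKO) and in NES (8.45e-06, 1.01e-04 and 1.31e-04). NES was also lower in MAGI2-CKO than in C9orf89-CKO (-0.38, adjusted p = 0.0425), a call that was lost without C9orf89-CKO replicate 1 (0.142) or 3 (0.0585), MAGI2-CKO replicate 1 (0.0522), 2 (0.127) or 3 (0.108), MLPH-CKO replicate 3 (0.0547), Non-target replicate 1 (0.0518) or RHBDD2-CKO replicate 2 (0.0544) or 3 (0.0516), and from replicates 2 and 3 alone (0.0753). The NES call was also lost in a fit of the 6 libraries alone (0.122).

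The 250 bases upstream of VIM (chr10:17227991-17228240, plus strand) and NES (chr1:156677408-156677657, minus strand), from the same RefSeq table, are printed because these genes were called higher in the same clones. Capitals mark the CG dinucleotides, of which each window held 8.

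VIM: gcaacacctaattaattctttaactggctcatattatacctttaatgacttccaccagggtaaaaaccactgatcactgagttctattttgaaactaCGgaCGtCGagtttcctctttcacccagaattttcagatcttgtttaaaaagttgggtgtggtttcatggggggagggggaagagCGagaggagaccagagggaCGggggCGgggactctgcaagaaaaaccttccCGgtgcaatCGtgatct
NES: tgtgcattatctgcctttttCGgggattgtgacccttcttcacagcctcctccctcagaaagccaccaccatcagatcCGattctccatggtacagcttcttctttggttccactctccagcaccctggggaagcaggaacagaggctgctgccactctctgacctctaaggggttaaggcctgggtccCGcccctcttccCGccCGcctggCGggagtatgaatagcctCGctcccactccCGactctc

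Both windows held GGGCGG, that of NES on the opposite strand (CCGCCC as printed), and neither held TATAAA or CCAAT on either strand. The INA window had 30 CG dinucleotides and GGGCGG, that of KRT8 had 1 and none of the 3 motifs, and that of KRT10 had 0, with TATAAA and CCAAT. KRT18, KRT19, NEFL and NEFM were not in the table.

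Of the neuronal chains, NEFM and NEFL differed most between the lines. NEFM was nearly absent from MAGI2-CKO, and NEFL, NEFM and INA were all lower in RHBDD2-CKO. NEFL (ENSG00000277586, chr8:24950955-24957110, minus strand) was at 16.8, 20.5 and 19.1 FPKM in Non-target, 23.2, 23.4 and 25.5 in C9orf89-CKO, 23.5, 25.4 and 25.3 in MAGI2-CKO, 34.8, 35.6 and 34.0 in MLPH-CKO and 0.903, 0.914 and 1.14 in RHBDD2-CKO. No clone overlapped with Non-target: 3 lay above it and RHBDD2-CKO far below. NEFL was 19.1-fold lower in RHBDD2-CKO (log2 -4.12, SE 0.09, adjusted p = 3.02e-11) and rose 1.85-fold in MLPH-CKO (0.89, adjusted p = 1.16e-05). It rose less in MAGI2-CKO (0.40, adjusted p = 0.00370) and C9orf89-CKO (0.36, adjusted p = 0.0105).

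NEFM (ENSG00000104722, chr8:24913012-24919098, plus strand) lies 31856 bases from NEFL with no annotated gene between them. It was at 38.4, 21.4 and 21.8 FPKM in Non-target, 29, 14.7 and 14.2 in C9orf89-CKO, 0.0705, 0 and 0.0117 in MAGI2-CKO, 31.8, 17.7 and 17.9 in MLPH-CKO and 1.89, 0.957 and 1.19 in RHBDD2-CKO. MAGI2-CKO was thus nearly silent, with 7 fragments in all (6, 0 and 1), where the Non-target libraries had 2699, 1449 and 1674. The ratio of means was 991-fold (log2 -7.73, SE 0.36, adjusted p = 1.02e-08), while NEFL rose in the same wells. Without MAGI2-CKO replicate 1, which held 6 of the 7 fragments, it was 4647-fold, with an exact 95% Poisson interval of 834 to 183540 for the 1 fragment left, which covers counting error only and not the spread between wells. The log2 change ran from -10.36 to -4.73 over the alternatives, all past the threshold. In RHBDD2-CKO, NEFM was 20.2-fold lower (-4.23, adjusted p = 2.38e-06), close to the fold of NEFL there. RHBDD2-CKO and MAGI2-CKO differed in NEFM by a log2 of 3.49 (adjusted p = 6.39e-06, with 1.17 to 6.04 over the alternatives) and in NEFL by -4.52 (adjusted p = 4.71e-12), in opposite directions. C9orf89-CKO and MLPH-CKO overlapped with Non-target (-0.52, adjusted p = 0.319, and -0.27, adjusted p = 0.612), but replicate 1 was 1.75 times the mean of replicates 2 and 3 or more in every group, the largest such excess of the members in the median over groups. From replicates 2 and 3 alone, NEFM was lower in C9orf89-CKO (adjusted p = 0.00566) and not past the threshold in MLPH-CKO (0.0773). With the replicate number as a block, a pairing that the design does not state, NEFM was lower in both (5.29e-04 and 0.0182). Its antisense neighbour AF106564.1 was at 0.495 FPKM in Non-target and at 0.273, 0.0807, 0.318 and 0.0144 in the clones.

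INA (ENSG00000148798, chr10:103277163-103290351, plus strand) was at 13.4, 15 and 15.3 FPKM in Non-target, 11.4, 12.1 and 12.9 in C9orf89-CKO, 9.44, 8.92 and 9.48 in MAGI2-CKO, 15.4, 18.7 and 17.1 in MLPH-CKO and 4.12, 4.51 and 4.97 in RHBDD2-CKO. RHBDD2-CKO, MAGI2-CKO and C9orf89-CKO lay below Non-target without overlap and MLPH-CKO above it. INA was 3.21-fold lower in RHBDD2-CKO (log2 -1.66, SE 0.09, adjusted p = 3.72e-08) and 1.57-fold lower in MAGI2-CKO (-0.64, adjusted p = 9.23e-05). The difference in C9orf89-CKO (-0.26, adjusted p = 0.0401) passed under 13 of 25 alternatives and was lost without any of 8 single libraries (C9orf89-CKO replicates 1, 0.129, and 2, 0.0920, Non-target replicates 2, 0.114, and 3, 0.134, MAGI2-CKO replicates 2, 0.0508, and 3, 0.0513, MLPH-CKO replicate 3, 0.0521, and RHBDD2-CKO replicate 2, 0.0520). In MLPH-CKO the difference was 0.23 (adjusted p = 0.0672), and it passed without MLPH-CKO replicate 1 (0.0275).

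The neuronal markers were summed beside the neurofilament chains. Of 10 neuronal markers, 2 reached 1 FPKM in Non-target, and their summed level was 8.17 FPKM in Non-target and 8.16, 10.5, 6.66 and 3.42 in the clones. SYP, a synaptic vesicle protein and the most abundant of them, was at 5.21 FPKM in Non-target and 2.52 in RHBDD2-CKO (log2 -1.03, adjusted p = 5.51e-04). GAP43, a growth cone protein, was at 2.31 FPKM in Non-target, 0.590 in RHBDD2-CKO (-1.84, adjusted p = 6.84e-05) and 0.258 in MLPH-CKO (-2.78, adjusted p = 2.73e-06), the clone in which NEFL was highest. RBFOX3, the neuronal nuclear protein, was at 0.366 FPKM in Non-target and 0.362, 0.538, 0.261 and 0.0764 in the clones, with RHBDD2-CKO below Non-target without overlap, and was under the filter. The other 7 markers (TUBB3, ELAVL3, ELAVL4, MAP2, DCX, STMN2 and SNAP25) stayed under 0.5 FPKM in the mean of every group and were not tested. In RHBDD2-CKO the means of MAP2, TUBB3, STMN2 and DCX were not below Non-target, and those of ELAVL3, ELAVL4 and SNAP25 were lower. Of these, DCX rose (0 to 0.0137 FPKM) and SNAP25 fell (0.0897 to 0.0122) without overlap. In MAGI2-CKO, MAP2 fell from 0.113 to 0.0178 FPKM and RBFOX3 rose, each without overlap. The summed markers were thus lowest in RHBDD2-CKO, where NEFL, NEFM and INA were all low, and highest in MAGI2-CKO, where NEFM was nearly absent. The MAGI2-CKO sum was mostly SYP (6.83 FPKM, adjusted p = 0.103) and GAP43 (3.01 FPKM, adjusted p = 0.257), and neither passed against Non-target. The part of the neuronal markers in the result was not tested.

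Between the clones, 9 members could be tested. RHBDD2-CKO differed from MLPH-CKO in 7 of them (37.0% of all tested genes), all lower (18.4%). From C9orf89-CKO it differed in 7 (29.3%), 6 lower (15%) and 1 higher (14.3%), and from MAGI2-CKO in 6 (41.6%), 4 lower (20%) and 2 higher (21.5%). MAGI2-CKO differed from C9orf89-CKO in 5 (22.5%), 4 lower (12.7%) and 1 higher (9.76%). MLPH-CKO differed from C9orf89-CKO in 4 (14.2%) and from MAGI2-CKO in 4 (21.2%), all higher (6.63% and 11.8%). KRT8 was higher in MLPH-CKO than in C9orf89-CKO (2.50, adjusted p = 1.53e-08), MAGI2-CKO (2.02, adjusted p = 3.63e-08) and RHBDD2-CKO (RHBDD2-CKO minus MLPH-CKO, -1.71, adjusted p = 6.73e-08). INA fell in a fixed order of means, MLPH-CKO at 17.1, Non-target at 14.6, C9orf89-CKO at 12.1, MAGI2-CKO at 9.28 and RHBDD2-CKO at 4.53 FPKM, in which all neighbours but MLPH-CKO and Non-target passed the test. KRT8 was higher in RHBDD2-CKO than in MAGI2-CKO (0.30, adjusted p = 0.0266), a call lost without MAGI2-CKO replicate 1 (0.0989) or 2 (0.0953) or RHBDD2-CKO replicate 1 (0.102) or 3 (0.0749), and from replicates 2 and 3 alone (0.18, adjusted p = 0.211). That KRT8 call was also lost in a fit of the 6 libraries alone (0.106). KRT10 was higher in MLPH-CKO than in C9orf89-CKO (0.65, adjusted p = 0.0239), lost without C9orf89-CKO replicate 2 (0.0886) or 3 (0.0749) or MLPH-CKO replicate 1 (0.0643). The KRT10 call was also lost in a fit of the 6 libraries alone (0.115). For KRT10 no neighbours in the order of means passed in the fit of all 15 libraries, and for VIM only C9orf89-CKO over RHBDD2-CKO did. From replicates 2 and 3 alone, VIM in MLPH-CKO over MAGI2-CKO (adjusted p = 0.00344) and KRT10 in Non-target over MLPH-CKO (0.0328) passed too.

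The summed level of the 10 genes showed how the make-up of the pool shifted. It was 209 ± 2.28 FPKM (SD, n = 3) in MLPH-CKO, 157 ± 0.571 in C9orf89-CKO, 142 ± 3.27 in Non-target, 139 ± 8.37 in MAGI2-CKO and 85.5 ± 2.26 in RHBDD2-CKO. MLPH-CKO and C9orf89-CKO lay above all Non-target wells, RHBDD2-CKO lay below them and MAGI2-CKO overlapped with them. VIM made up 31.9% ± 3.31 of the sum in Non-target and 43.8% ± 5.17, 49.6% ± 1.69, 39.3% ± 4.88 and 55.0% ± 3.46 in the clones, the last with VIM itself at the control level. The 3 neuronal chains made up 42.8% ± 4.67 in Non-target and 35.3% ± 4.63, 24.5% ± 0.827, 35.5% ± 2.91 and 8.03% ± 0.401 in the clones. The keratins made up 23.6% ± 1.49 in Non-target and 17.3% ± 0.385, 22.8% ± 0.733, 23.2% ± 1.83 and 34.3% ± 3.10 in the clones. For the shares, the exact two-sided permutation p was 0.1 at best, the smallest that 3 against 3 allows, and it was reached for VIM in C9orf89-CKO, MAGI2-CKO and RHBDD2-CKO, for the neuronal chains in RHBDD2-CKO, MAGI2-CKO and MLPH-CKO, and for the keratins in C9orf89-CKO and RHBDD2-CKO.

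**Figure D4:**
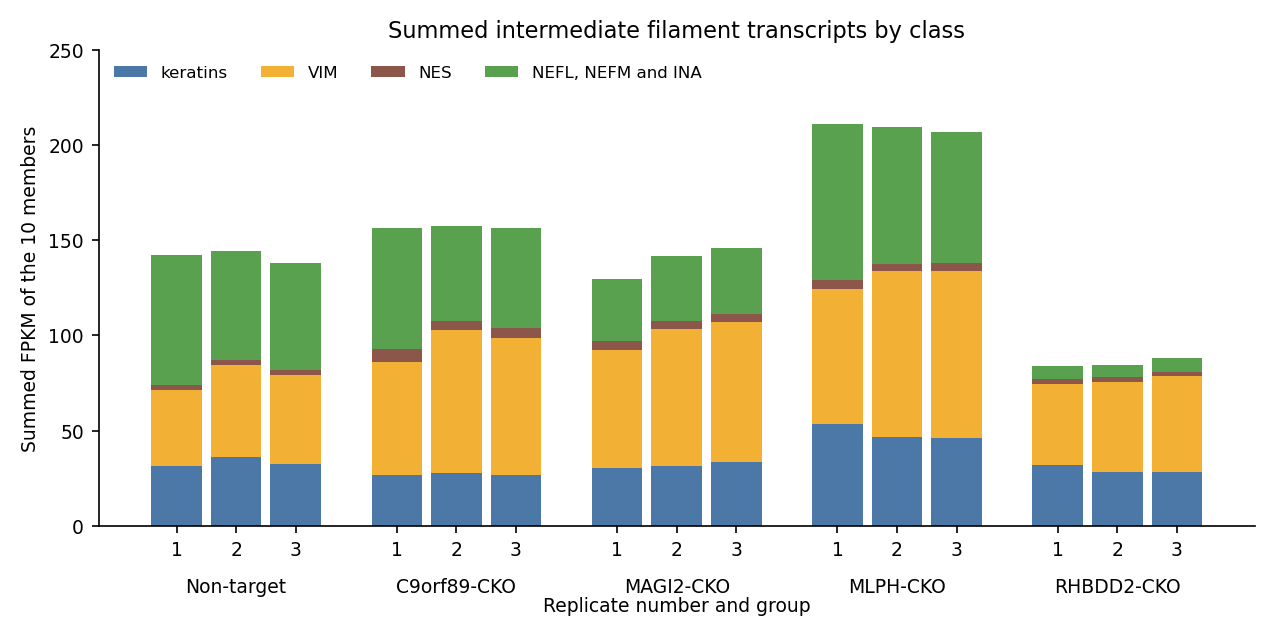
Summed FPKM of the 10 genes in each library, stacked as keratins, VIM, NES and the neuronal chains (NEFL, NEFM and INA), with 3 bars a group. The bars are tallest in MLPH-CKO (mean 209) and shortest in RHBDD2-CKO (85.5), where the neuronal chains are 8.03% of the sum.

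Set beside the 13698 tested genes with a mean of at least 1 FPKM in some group, the span between the highest and the lowest group mean on the log2(FPKM + 0.1) scale was 7.74 for NEFM, 5.01 for NEFL, 2.50 for KRT8 and 1.89 for INA, and the median gene spanned 0.57. NEFM exceeded 99.98% of these genes, NEFL 99.6%, KRT8 96.5% and INA 93.9%. NES (86.2%), VIM (72.8%) and KRT10 (64.6%) were closer to the middle, and KRT18 (39.8%) was steadier than the median gene. Across the 15 libraries, which share 5 lines and so give few independent points, NEFL correlated with INA (Pearson r = 0.906), VIM with KRT18 (0.820) and with NES (0.732), and NEFL with NES (0.655) and with VIM (0.627). For the partners KRT8 and KRT18 the value was 0.619, and for NEFL and NEFM 0.270. Among the genes most like single members by Pearson's r on the log2 scale over the same libraries were ING1 (0.994) and SV2A (0.993) for NEFL, GAS6 (0.967) for INA, AP1S2 (0.976) for NEFM, FBXL16 (0.965) for VIM, RBM20 (0.965) for NES, MRPL2 (0.953) for KRT10, VAC14 (0.926) for KRT18 and SLC35F5 (0.923) for KRT8. For KRT38 they were COPS3 (0.984), MED9 (0.982) and CEP85 (0.982), a likeness set largely by its zeros in Non-target, for which the gene was chosen. FBXL16 was at 0.720 FPKM in Non-target, 1.25 in RHBDD2-CKO and 10.1 in MLPH-CKO.

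The 20 tested genes nearest to each member gave its surroundings. Around NEFL their median log2 change against Non-target lay between -0.15 and -0.07 in the clones, beside -4.12 for NEFL itself in RHBDD2-CKO. Around VIM it was 0.47, 0.37, 0.40 and 0.15, beside 0.60, 0.61, 0.86 and 0.06 for VIM itself. Around INA, also on chromosome 10, it was 0.25, 0.35, 0.28 and 0.03, beside -0.26, -0.64, 0.23 and -1.66 for INA itself. Around NES it was 0.02, 0.18, 0.005 and -0.11, beside 1.18, 0.80, 0.80 and -0.06 for NES itself. Around KRT38 it was 0.29, 0.40, 0.36 and 0.08. The median over all tested genes was -0.01 or nearer to 0 in each comparison with Non-target.

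Other members of the superfamily were mostly off. Of 50 other keratin genes, 27 had no fragment in any library, 47 averaged under 0.1 FPKM, and 1 passed the filter. That gene was KRT222, a keratin-like type I gene, at 0.324 FPKM in Non-target, 0.0678 in RHBDD2-CKO (log2 -1.26, adjusted p = 0.00780) and 0.755 in MLPH-CKO (1.08, adjusted p = 0.0199). Its means in Non-target and RHBDD2-CKO were under the 0.5 FPKM of the filter. KRT222 was thus tested through groups where it was higher, and its calls are given as a description. It was named after its values were seen, and the MLPH-CKO call was lost without MLPH-CKO replicate 2 (0.0828) or Non-target replicate 2 (0.0733). The RHBDD2-CKO call was lost from replicates 2 and 3 alone (0.0940) and in a fit of the 6 libraries alone (0.0568). Of the 63 other intermediate filament genes, 9 were tested, and 3, 5, 6 and 5 passed in the clones (33.3%, 55.6%, 66.7% and 55.6%, beside 26.0%, 36.1%, 30.1% and 34.1% of all tested genes), all higher but for LMNB2 in the last 3 clones and KRT222 in RHBDD2-CKO. Their median log2 changes were 0.20, 0.33, 0.45 and 0.04.

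PRPH, the peripheral neuron filament peripherin, rose in all 4 clones, from 0.141 FPKM to 0.425, 0.358, 0.805 and 0.565, with the MAGI2-CKO call lost under quantile normalization (0.0616). Its mean in Non-target was under the 0.5 FPKM of the filter. PRPH was thus tested through clones where it was high, and its calls are given as a description. Synemin (SYNM), a large filament protein that binds vimentin, rose from 0.603 FPKM to 1.58, 0.954, 1.32 and 1.03, with the MAGI2-CKO call lost without MAGI2-CKO replicate 1 (0.0697) or Non-target replicate 3 (0.0706). IFFO2 rose from 2.23 FPKM to 3.10, 2.83, 3.10 and 3.18, with the MAGI2-CKO call lost without MAGI2-CKO replicate 1 (0.0851) or 2 (0.0951) or Non-target replicate 2 (0.0648) or 3 (0.114) and the MLPH-CKO call in a fit of the 6 libraries alone (0.0540). Of the nuclear lamina genes, LMNA rose from 12.0 FPKM to 16.9 in MAGI2-CKO (0.49, adjusted p = 2.16e-04) and 17.7 in MLPH-CKO (0.56, adjusted p = 1.06e-04), and LMNB1 was at 88.8 FPKM in Non-target and passed in no clone. LMNB2 was at 115 FPKM in Non-target and between 98.3 and 101 in the clones; its calls in MAGI2-CKO (0.0449), MLPH-CKO (0.0320) and RHBDD2-CKO (0.0215) were each lost without Non-target replicate 2 (0.119, 0.0903 and 0.0696) or 3 (0.130, 0.101 and 0.0736) and under quantile normalization (0.0808, 0.0814 and 0.651). The MAGI2-CKO call was also lost without C9orf89-CKO replicate 3 (0.0563), MAGI2-CKO replicate 1 (0.113) or 2 (0.136), or RHBDD2-CKO replicate 2 (0.0585) or 3 (0.0593), that of MLPH-CKO without its replicate 2 (0.122) or 3 (0.109), and that of RHBDD2-CKO without its replicate 2 (0.0587) or 3 (0.0685). BFSP1 and IFFO1 passed in no clone.

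**Figure D5:**
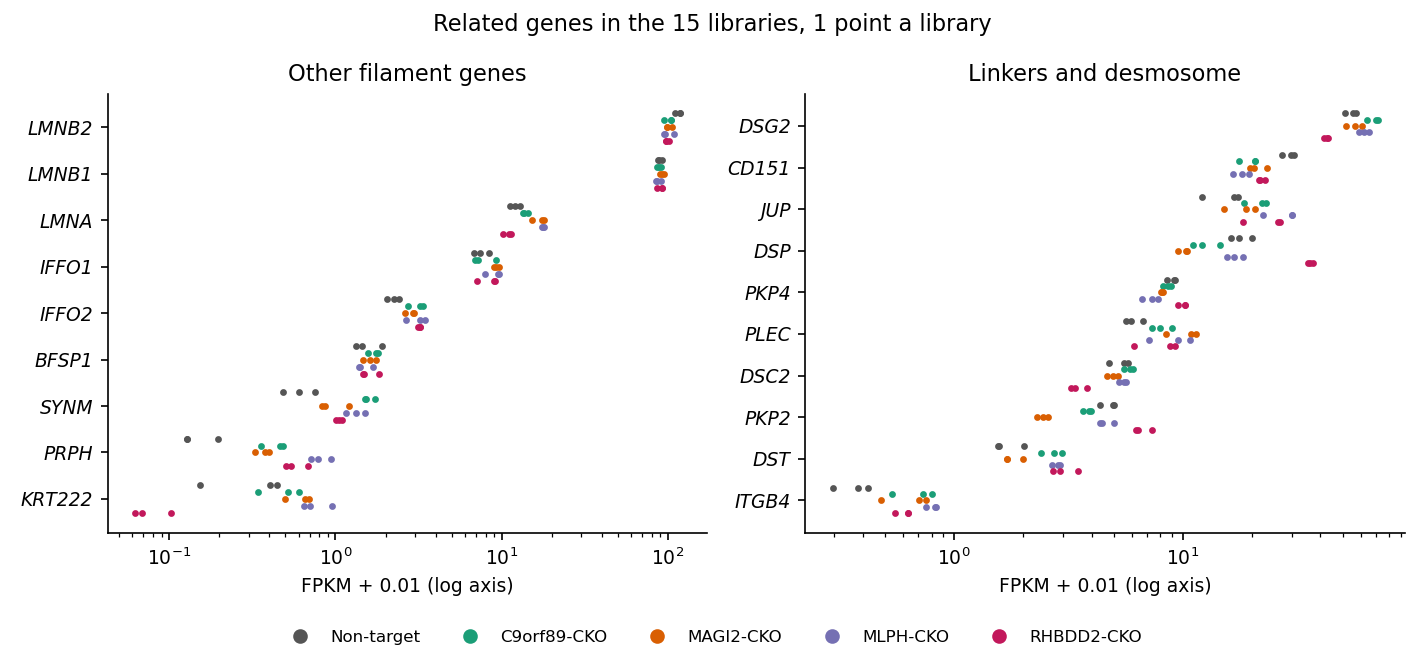
FPKM + 0.01 (log axis) of other filament genes and of linker and desmosome genes, 1 point a library, coloured by group. In DSP and PKP2 the RHBDD2-CKO points lie highest (means 36.1 and 6.66) and the MAGI2-CKO points lowest (10.1 and 2.44), and all clones lie below Non-target in CD151.

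Among the proteins that tie filaments to junctions, DSP and PKP2 of the desmosomal plaque were highest in RHBDD2-CKO and lowest in MAGI2-CKO. Of 11 tested linker genes, 4, 5, 5 and 8 passed in the clones (36.4%, 45.5%, 45.5% and 72.7%, beside 26.0%, 36.1%, 30.1% and 34.1% of all tested genes). Of the last 8, 7 were higher. The median log2 change of all 11 in RHBDD2-CKO was 0.66, against 0.00 for all tested genes. DSP, the desmoplakin that anchors keratins to desmosomes, rose from 18 FPKM in Non-target to 36.1 in RHBDD2-CKO (1.01, adjusted p = 9.31e-06) and fell to 10.1 in MAGI2-CKO (-0.82, adjusted p = 3.77e-05) and 12.6 in C9orf89-CKO (-0.52, adjusted p = 0.00216). These 3 calls held under all 25 alternatives, and in MLPH-CKO DSP was at 16.9 FPKM (adjusted p = 0.567). CD151, a tetraspanin of hemidesmosomes, fell in all 4 clones, from 29.2 FPKM to between 18.1 and 22.0. DST, a plakin linker, rose in C9orf89-CKO, MLPH-CKO and RHBDD2-CKO, from 1.71 FPKM to 2.69, 2.81 and 3.03. PLEC, the plectin that crosslinks filaments, rose in MAGI2-CKO (from 6.10 FPKM to 10.2, adjusted p = 0.00605). In MLPH-CKO it was at 9.13 (adjusted p = 0.0304), a call lost without MLPH-CKO replicate 2 (0.0899) or 3 (0.125) or Non-target replicate 1 (0.0874) or 2 (0.0762). ITGB4, an integrin subunit that binds plectin, was at 0.357 FPKM in Non-target and 0.680, 0.636, 0.796 and 0.595 in the clones (adjusted p = 0.0117, 0.0162, 0.00228 and 0.0288). Its mean in Non-target was under the 0.5 FPKM of the filter. ITGB4 was thus tested through the clones, where it was higher, and its calls are given as a description. Of these ITGB4 calls, the first was lost without C9orf89-CKO replicate 3 (0.0510), the second without MAGI2-CKO replicate 2 (0.0614) or 3 (0.0689) or Non-target replicate 1 (0.0596), and the last without Non-target replicate 1 (0.0928) or 2 (0.0542) or RHBDD2-CKO replicate 2 (0.0755) or 3 (0.0779).

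Of 7 tested desmosome genes, 3, 3, 2 and 5 passed in the clones (42.9%, 42.9%, 28.6% and 71.4%, beside 26.0%, 36.1%, 30.1% and 34.1% of all tested genes). PKP2, a plaque protein, fell from 4.78 FPKM to 2.44 in MAGI2-CKO (-0.94, adjusted p = 3.38e-06) and rose to 6.66 in RHBDD2-CKO (0.47, adjusted p = 0.00111). In C9orf89-CKO it was at 3.83 FPKM (-0.31, adjusted p = 0.0160), a call lost without C9orf89-CKO replicate 1 (0.0560) or Non-target replicate 2 (0.0621) or 3 (0.0620). JUP, plakoglobin, rose from 15.5 FPKM to 27.6 in MLPH-CKO (0.84, adjusted p = 0.00443). Its level of 23.7 FPKM in RHBDD2-CKO also passed (0.61, adjusted p = 0.0231), a call lost without Non-target replicate 1 (0.0914) or RHBDD2-CKO replicate 2 (0.0859) or 3 (0.0841). The desmosomal cadherins fell in RHBDD2-CKO, DSG2 from 54.7 to 42.5 FPKM (-0.36, adjusted p = 0.00154) and DSC2 from 5.34 to 3.49 (-0.60, adjusted p = 1.53e-04), and DSG2 rose to 68.3 in C9orf89-CKO (0.32, adjusted p = 0.00462). PKP4 fell from 8.96 to 7.25 FPKM in MLPH-CKO (-0.31, adjusted p = 0.00334).

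Of 12 tested turnover genes, 5, 6, 5 and 6 passed in the clones (41.7%, 50%, 41.7% and 50%, beside 26.0%, 36.1%, 30.1% and 34.1% of all tested genes). HSPB1, a small heat shock protein that binds filaments, fell from 85.8 FPKM to 43.7 in RHBDD2-CKO (-0.97, adjusted p = 6.25e-06) and to 44.5 FPKM in MAGI2-CKO (-0.94, adjusted p = 5.99e-06). The MLPH-CKO level was 65.8 FPKM (-0.38, adjusted p = 0.00724). TRIM32, a ubiquitin ligase, fell from 8.83 FPKM to 6.45 in C9orf89-CKO (-0.45, adjusted p = 0.00572) and 6.58 in MLPH-CKO (-0.43, adjusted p = 0.00647). It was at 7.02 in MAGI2-CKO (adjusted p = 0.0219), a call lost without MAGI2-CKO replicate 1 (0.0887) or Non-target replicate 1 (0.0544) or 3 (0.0818).

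Of 17 tested transcriptional regulators, 9, 11, 7 and 8 passed in the clones (52.9%, 64.7%, 41.2% and 47.1%, beside 26.0%, 36.1%, 30.1% and 34.1% of all tested genes). GATA3 fell in all 4, from 6.30 FPKM to 4.29, 4.2, 4.72 and 3.31, under all 25 alternatives. KLF5, an epithelial factor, was at 9.41 FPKM in Non-target and 7.81, 6.98, 8.14 and 5.20 in the clones, and all 4 calls were lower, but that in MLPH-CKO (adjusted p = 0.0409) held under 13 of 25 alternatives, and that in C9orf89-CKO (0.0138) was lost without C9orf89-CKO replicate 2 (0.0561). The MLPH-CKO call was lost without MLPH-CKO replicate 1 (0.143) or 2 (0.0666), Non-target replicate 1 (0.104) or 2 (0.113), MAGI2-CKO replicate 2 (0.0553) or RHBDD2-CKO replicate 3 (0.0519). REST, a repressor of neuronal genes, rose from 5.05 FPKM to 6.50 in RHBDD2-CKO (0.37, adjusted p = 0.00412) and 7.14 in C9orf89-CKO (0.50, adjusted p = 6.89e-04). It was at 6.05 in MAGI2-CKO (adjusted p = 0.0233), a call lost without MAGI2-CKO replicate 1 (0.0604) or 2 (0.0758) or Non-target replicate 2 (0.101) or 3 (0.0813). POU3F2, a neural POU factor, rose in MLPH-CKO from 9.82 to 13.8 FPKM (0.49, adjusted p = 1.83e-04) and passed in no other clone. ZEB2, a repressor of epithelial genes, rose in MAGI2-CKO from 1.09 to 1.97 FPKM (0.80, adjusted p = 6.31e-05) and in RHBDD2-CKO to 1.56 (0.48, adjusted p = 0.00324). JUN, an AP-1 subunit, fell in C9orf89-CKO and RHBDD2-CKO (from 149 FPKM to 94.7 and 101) and rose in MAGI2-CKO (227), and under quantile normalization these falls had adjusted p of 0.0506 and 0.141. In MLPH-CKO it was at 105 FPKM (adjusted p = 0.0145), a call lost without MLPH-CKO replicate 1 (0.0575) or Non-target replicate 2 (0.0564) and under quantile normalization (0.0850). HOXC13 fell in MAGI2-CKO from 10.3 to 6.13 FPKM (-0.74, adjusted p = 0.00201), and LEF1 in MLPH-CKO from 7.04 to 4.74 (-0.56, adjusted p = 7.71e-04). LEF1 was at 5.59 FPKM in MAGI2-CKO (adjusted p = 0.0168), lost without MAGI2-CKO replicate 3 (0.0693) or Non-target replicate 2 (0.0610), and at 8.87 in RHBDD2-CKO (0.0205), lost without Non-target replicate 3 (0.0710) or RHBDD2-CKO replicate 2 (0.0796) or 3 (0.0879).

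Epithelial, mesenchymal and kidney markers gave the setting of these values. The 8 of 9 embryonic kidney markers that reached 1 FPKM in some group included SIX2, the most abundant at 23 FPKM in Non-target, and the list summed to between 63.6 FPKM (RHBDD2-CKO) and 77.5 (MAGI2-CKO). Of the 8 tested, 1, 3, 3 and 2 were higher and 1, 1, 1 and 3 lower in the clones. SIX2, a factor of nephron progenitors, was higher in every clone, at 34.7 FPKM in MLPH-CKO (adjusted p = 1.84e-04), 30.6 in MAGI2-CKO (0.00193), 28.9 in C9orf89-CKO (0.0116) and 28.0 in RHBDD2-CKO (0.0198). Without Non-target replicate 3 the SIX2 calls of C9orf89-CKO (0.0565) and RHBDD2-CKO (0.0910) were lost, and the RHBDD2-CKO call also without RHBDD2-CKO replicate 1 (0.0578) or 2 (0.0700). LHX1, another kidney developmental factor, fell from 1.00 FPKM to 0.452 in RHBDD2-CKO (adjusted p = 1.41e-04) and rose to 2.01 in MLPH-CKO (2.58e-04). In MAGI2-CKO it was at 1.41 FPKM (adjusted p = 0.02), a call lost without MAGI2-CKO replicate 2 (0.0609) or 3 (0.0690) or Non-target replicate 3 (0.0727). Of 10 epithelial markers, 3 were tested: their list summed to 2.43 FPKM in Non-target and 2.51 in MAGI2-CKO, and to 6.11, 5.84 and 6.18 in C9orf89-CKO, MLPH-CKO and RHBDD2-CKO. ESRP2, an epithelial splicing factor, rose from 0.130 FPKM to 3.70 in RHBDD2-CKO, 2.20 in C9orf89-CKO and 0.668 in MLPH-CKO. With its Non-target mean under 0.5 FPKM, ESRP2 passed the filter through these clones, so this is given as a description. EPCAM, an epithelial adhesion protein, rose from 0.568 FPKM to 2.60 in MLPH-CKO (2.02, adjusted p = 2.91e-06), 1.15 in RHBDD2-CKO (0.90, adjusted p = 0.00147) and 1.45 in C9orf89-CKO (1.18, adjusted p = 2.71e-04). CDH1, E-cadherin, was at 1.40 FPKM in Non-target and 1.87, 1.3, 1.82 and 1.07 in the clones and passed in none. GRHL2, PAX8 and ESRP1 stayed near 0. The mesenchymal list, led by TWIST1 (13.3 FPKM in Non-target), summed to 22.1 FPKM in Non-target and 17.5, 18.8, 19.5 and 13.3 in the clones. TWIST1 fell to 9.77 FPKM in MAGI2-CKO (adjusted p = 0.0124) and 7.73 in RHBDD2-CKO (3.30e-04). The collagen chain COL3A1 fell in all 4 clones, from 1.29 FPKM to 0.129, 0.352, 0.160 and 0.204 (adjusted p = 2.33e-05, 5.71e-04, 2.87e-05 and 6.54e-05). Every clone mean was under the 0.5 FPKM of the filter. COL3A1 was thus tested through Non-target, where it was high, and its calls are given as a description. COL1A1, another collagen chain, rose from 2.43 FPKM to 4.12, 4.75 and 4.48 in the first 3 clones (adjusted p = 0.00739, 0.00110 and 0.00311) and was at 3.28 in the last (0.0939). FN1, fibronectin, fell in C9orf89-CKO, MLPH-CKO and RHBDD2-CKO, from 4.27 to 2.08, 2.49 and 1.63 FPKM. Blood markers summed to at most 0.426 FPKM in the mean of a group and MPO had no fragment. The part of these markers in the filament values was not tested.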

How the data were processed

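RNA from HEK293T cells was sequenced in 15 wells, 3 for each of 5 lines. The authors deposited 1 table a well with 1 value a gene. The file headers do not name the unit, which was read from the deposited values as FPKM: multiplied by exon length they moved in steps of 1 read pair, and a step was 0.954 to 1.02 times that expected of FPKM from the fragments on genes. The labels name HISAT2 2.0.5, featureCounts 1.5.0-p3 and DESeq2 without saying what each was used for, the library kit was NEBNext Ultra RNA, and the authors' genome build and counting strand are not given in the sources used here. Gene symbols and coordinates came from GENCODE v29 on GRCh38. The whole fragments of each library were recovered from these steps, and 100% of values were whole within 0.02.

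The 10 members and all gene lists were chosen with earlier results of these data known. The 16175 of 58735 genes that reached 0.5 FPKM in 3 or more libraries were tested on log2(FPKM + 0.1) with limma 3.58.1 in R 4.3.3 (1 fit of all 15 libraries, eBayes with trend), Benjamini-Hochberg adjusted over all tested genes, with a threshold of 0.05. Fold changes on this scale understate the change of low genes, and folds given as "-fold" are ratios of mean FPKM. Named besides the members were the targeted genes, other filament genes with a mean of at least 1 FPKM, filament genes and genes of the linker, desmosome, turnover and regulator lists past the threshold in 1 direction in all 4 clones, of each of those 4 lists the largest rise and fall per clone without overlap of wells (mean of at least 1 FPKM), the genes most like each member, overlapping genes, pseudogenes and markers. A few genes that this rule names are not reported here. Python 3.11.15, pandas 2.3.3, numpy 2.4.6, scipy 1.17.1 and matplotlib 3.10.9 were used for the rest.

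The 25 alternatives were pseudocounts of 0.01 and 1, no filter, a filter on a mean of 1 FPKM, quantile normalization, no trend, a fit of the 6 libraries compared, the replicate number as a block, voom on the recovered fragments, replicates 2 and 3 only (added after the data were seen) and leaving out each of the 15 libraries. Ratios and shares were also computed from TPM, which rescales each library by a single factor and so could not change them. In data simulated for C9orf89-CKO against Non-target on 16175 genes, 173 of 200 genes changed 2-fold were recovered and 11 unchanged genes were called. The simulated wells were independent, with a fixed spread and no shift of replicate 1, and only genes above the median level were changed. These counts therefore do not carry over to low genes or to the spread of the real wells.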

Additional observations from a re-analysis of the deposited data

Results flagged for a closer look

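Of the members, 2 moved in opposite directions from Non-target in different clones, and the differences between those clones were themselves tested with limma. KRT8 rose in MLPH-CKO and fell in C9orf89-CKO and MAGI2-CKO, so that MLPH-CKO exceeded them by 2.50 (adjusted p = 1.53e-08) and 2.02 (adjusted p = 3.63e-08) on the log2 scale. NEFL fell in RHBDD2-CKO and rose in the other clones. RHBDD2-CKO lay at -4.48 on the log2 scale relative to C9orf89-CKO, at -4.52 relative to MAGI2-CKO and at -5.01 relative to MLPH-CKO. In each case the wells of the clones did not overlap, which follows from their lying on opposite sides of all Non-target wells. These members were picked for calls in opposite directions against the same 3 Non-target wells. The direct differences between clones follow from that choice and add no separate support. With 3 wells a group, single wells were not tested for standing apart.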

How the results depend on the processing

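No log2 change that passed the threshold changed sign under an alternative. Of the members' values, 16 changed sign without passing (lowest adjusted p 0.640), among them KRT10 and NEFM in MLPH-CKO, KRT18 in C9orf89-CKO and VIM in RHBDD2-CKO against Non-target. Of 2150 values for the members under the alternatives, 2059 stayed on their side of the threshold, 45 lost it and 46 gained it. The number of genes past the threshold was 4210, 5835, 4865 and 5511 against Non-target in the C9orf89, MAGI2, MLPH and RHBDD2 clones, and ranged over 3288 to 4365, 4750 to 5965, 3875 to 5023 and 4271 to 5640 on leaving out 1 library. The number of members past it ranged over 5 to 6, 6 to 6, 4 to 6 and 3 to 4, and between clones over 4 to 6 (MAGI2-CKO and C9orf89-CKO), 3 to 5 (MLPH-CKO and C9orf89-CKO), 4 to 4 (MLPH-CKO and MAGI2-CKO), 6 to 7 (RHBDD2-CKO and C9orf89-CKO), 5 to 6 (RHBDD2-CKO and MAGI2-CKO) and 7 to 8 (RHBDD2-CKO and MLPH-CKO). From replicates 2 and 3 alone the members past it against Non-target were 7, 7, 7 and 4. The KRT8 to KRT18 ratio on leaving out a library stayed within 0.381 to 0.412 in Non-target and 0.179 to 0.200, 0.246 to 0.270, 0.826 to 0.924 and 0.352 to 0.383 in the clones. The VIM share stayed within 30.9% to 33.9% in Non-target and 42.0% to 46.8%, 49.0% to 50.6%, 37.7% to 42.1% and 53.8% to 57.0% in the clones.

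The replicate numbers were not taken to pair the wells, since not every same-numbered pair correlated above 0.1. The deviations of same-numbered wells from their group means correlated with a median r of 0.0856 (30 pairs, lowest 0.0010), against -0.0887 for different numbers (60 pairs), and for number 1 alone the median was 0.212 (0.128 to 0.312 over 10 pairs). Of the 15 libraries, 12 correlated best with their own number, a hint from the data and not from the design. With the replicate number as a block, 7 members differed between MLPH-CKO and C9orf89-CKO in place of 4, the only such count that moved by more than 1.5 times, and against Non-target NEFM passed in C9orf89-CKO (adjusted p = 5.29e-04) and MLPH-CKO (0.0182), KRT10 in RHBDD2-CKO (0.00682) and INA in MLPH-CKO (0.0160); the cause was not tested. Between clones, the block gained KRT18 (adjusted p = 0.0120), VIM (0.00122) and NES (0.0155) for MLPH-CKO against C9orf89-CKO. It gained KRT18 (0.0389) and VIM (0.00105) for MLPH-CKO against MAGI2-CKO, and KRT18 for RHBDD2-CKO against MAGI2-CKO (0.0436). KRT10 was gained for MAGI2-CKO against C9orf89-CKO (0.0138) and RHBDD2-CKO against MLPH-CKO (0.0182). KRT38 at 0 in Non-target and NEFM at 7 fragments in MAGI2-CKO rest on few fragments, so a fitted change there depends on the pseudocount.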
